A study of Mus musculus with 6 samples.

Results

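The genes of the creatine cycle and of the calcium cycle of the endoplasmic reticulum, both of which can consume ATP without UCP1, were examined in the inguinal white fat (IngWAT) of floxed and H3atKO mice. The 10 genes were taken by symbol, through the GENCODE annotation of GRCm38, from the 46517 genes counted, and 9 of them were among the 14967 genes tested. For the creatine cycle they are *Gatm* and *Gamt* (synthesis), *Slc6a8* (uptake), *Ckb*, *Ckmt1* and *Ckmt2* (kinases) and *Alpl* (phosphatase). For the calcium cycle they are *Atp2a2* (pump), *Ryr2* (release channel) and *Sln* (pump regulator). Poly(A)-selected RNA was sequenced in 3 pools per genotype, each made from 500 ng of total RNA of 2 or 3 mice. H3atKO mice came from a cross of *Hdac3* floxed mice, strain C57Bl6 in the labels, with the B6:FVB-Tg(Adipoq-cre)1Evdr/J line, so that both genotypes carry the floxed allele and H3atKO mice also carry Cre. The mice were 5 to 9 months old in the labels, males by the methods, and received chow. The adiponectin promoter drives Cre in adipocytes, and the other cell types of the depot keep *Hdac3*. Each value is a mean over a few animals and over all cell types of the depot, and fewer cells of a type cannot be told apart from less RNA per cell. The files do not show which mice entered which pool, so p-values measure the spread between the pools only.

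Creatine is made in 2 steps, by the amidinotransferase GATM and the methyltransferase GAMT, and enters cells through the transporter SLC6A8. Creatine kinases transfer phosphate from ATP to creatine, in the cytosol (CKB) or at the mitochondrial membrane (CKMT1, CKMT2), and release of that phosphate by the tissue-nonspecific alkaline phosphatase ALPL returns creatine to the kinase. In calcium cycling the pump SERCA2 (*Atp2a2*) moves calcium into the endoplasmic reticulum at the cost of ATP and the ryanodine receptor RYR2 lets it out. The small protein sarcolipin (*Sln*) lets the pump hydrolyse ATP with less calcium moved. Several of these genes, or close relatives such as *Ckm*, *Atp2a1* and *Ryr1*, are also strongly expressed in skeletal muscle, which can be taken along when the inguinal depot is dissected.

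Between 23865507 and 35200685 reads per pool were counted on genes, so that 3 counts correspond to 0.0659 to 0.0729 cpm in floxed and 0.124 to 0.190 cpm in H3atKO pools (cpm are counts scaled to a fixed library size after TMM). The deleted gene, *Hdac3*, measured 71.7 ± 7.61 cpm in floxed and 20.5 ± 7.28 cpm in H3atKO pools (SD, n = 3 each). Its difference was -1.83 on the log2 scale (standard error, SE, 0.32; limma adjusted p = 0.0213). Genes of the mitochondrial genome took 6.92% to 12.9% of the counts in floxed and 26.9% to 35.3% in H3atKO pools. Expression also moved with GC content: over 14922 genes, which do not replicate one another, the rank correlation (Spearman's rho) of GC content with a pool's deviation from the mean was 0.808, 0.623 and 0.0575 in floxed pools 1 to 3 and -0.452, -0.517 and -0.720 in H3atKO pools 1 to 3. Genotype and GC content cannot be told apart here, and values with a GC correction are therefore given beside the main ones. Same-numbered pools of the genotypes deviated together, so values with the replicate number as a block are given where the block changes a call. No source says what the numbers stand for, so this pairing rests on the same counts that are tested.

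Of the 9 genes tested, *Sln* was the only one that limma voom called, lower in H3atKO pools, and none was called higher, at an adjusted p under 0.05 over all genes tested. Of all tested genes, 7.07% were called lower and 9.42% higher. Before adjustment, 4 of the 9 were lower and 1 was higher at a p under 0.05, against 23.4% and 20.4% of all genes. edgeR's quasi-likelihood test called 3 lower and 0 higher, against 18.4% and 12.8% of all genes, and DESeq2 called 3 lower and 1 higher, against 23.2% and 19.6%. With the replicate block limma called 5 of the 9 lower (*Gamt*, *Slc6a8*, *Ckb*, *Alpl* and *Sln*) and *Atp2a2* higher, against 28.7% and 24.8% of all genes. With the GC correction 1 (*Sln*) was lower and 0 were higher, against 3.06% and 5.55% of all genes, and 1 was lower and 2 were higher before adjustment, against 14.1% and 16.9%. When block and GC correction were combined, *Sln* was lower and *Slc6a8* was higher, against 9.71% and 13.1% of all genes. In 4 of the 9 genes (*Gamt*, *Slc6a8*, *Ckb* and *Sln*) every H3atKO pool was below every floxed pool, which held for 28.6% of all tested genes, and *Atp2a2* lay above every floxed pool, which held for 23.1%. The filter asked for 1 cpm before TMM in 1 or more pools. *Gamt*, *Ckb*, *Ryr2* and *Sln* reached it in floxed pools only, the genotype in which they are higher. Their place among the lower or not overlapping genes is therefore no support apart from the filter.

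**Figure D1:**
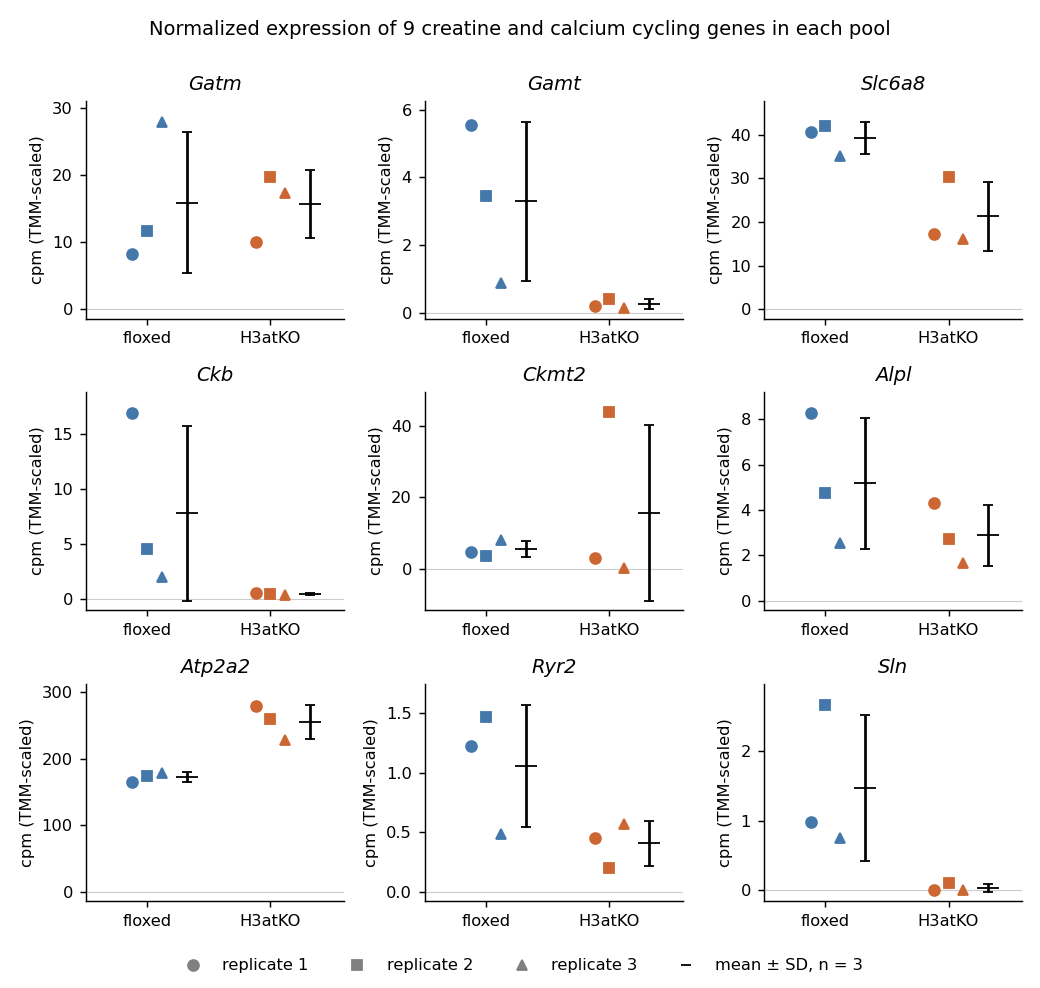
Normalized expression (cpm, linear axes) of the 9 tested genes in each of the 3 floxed and 3 H3atKO pools, with points for pools, shaped by replicate number, and bars for the mean and SD (n = 3). *Gamt*, *Slc6a8*, *Ckb* and *Sln* lie lower in every H3atKO pool, *Atp2a2* lies higher in every H3atKO pool, and the genotypes overlap for *Gatm*, *Ckmt2*, *Alpl* and *Ryr2*.

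Of the genes of creatine synthesis, *Gatm* overlapped between the genotypes and *Gamt* did not, and they were not tested against each other. *Gatm* (ENSMUSG00000027199; chromosome 2, 122594467 to 122611303), which encodes the first enzyme, measured 8.21, 11.6 and 27.9 cpm in floxed pools 1 to 3 and 10.01, 19.8 and 17.4 cpm in H3atKO pools 1 to 3. The genotypes overlapped fully, since both the lowest and the highest pool were floxed. The means were 15.9 ± 10.5 and 15.7 ± 5.09 cpm (SD, n = 3 each), with a log2 fold change of 0.11 (SE 0.53, limma adjusted p = 0.888). With the GC correction it was -0.64 (SE 0.39, limma adjusted p = 0.301). *Gamt* (ENSMUSG00000020150; chromosome 10, 80258151 to 80261012), which encodes the second enzyme, received 253, 143 and 36 counts in floxed pools 1 to 3 and 5, 8 and 2 counts in H3atKO pools 1 to 3. These are 5.55, 3.44 and 0.875 cpm in floxed and 0.206, 0.408 and 0.126 cpm in H3atKO pools. All H3atKO pools were lower, and the lowest floxed pool, replicate 3, came nearest to them. The means were 3.29 ± 2.34 and 0.247 ± 0.145 cpm (SD, n = 3 each), and 432 summed counts stood against 15, a ratio of floxed to H3atKO of 13.4 after scaling by the summed TMM library sizes (95% exact interval 8.04 to 24.2, counting error only). The log2 fold change was -3.36 (SE 1.18, limma adjusted p = 0.0755), which passed the threshold with edgeR (-3.70, adjusted p = 0.0253), with the replicate block (-3.61, limma adjusted p = 0.00711) and without floxed replicate 3 (-4.12, limma adjusted p = 0.00753). With the GC correction it was -1.16 (SE 0.56, limma adjusted p = 0.204). Over all alternatives that tested *Gamt* it stayed negative, from -4.51 to -1.16, with an adjusted p of 0.000329 to 0.274.

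*Slc6a8* (ENSMUSG00000019558; chromosome X, 73673150 to 73682502), which encodes the creatine transporter, measured 40.7, 42.0 and 35.1 cpm in floxed pools 1 to 3 and 17.3, 30.3 and 16.1 cpm in H3atKO pools 1 to 3. The genotypes did not overlap, and H3atKO replicate 2, the highest of its genotype, was the one nearest to the floxed pools. The means were 39.2 ± 3.67 and 21.3 ± 7.88 cpm (SD, n = 3 each), and the two-sided exact permutation test gave p = 0.1, the smallest that 3 pools against 3 allow. limma gave a log2 fold change of -0.94 (SE 0.30, limma adjusted p = 0.0646). With the replicate block it was -0.93 (limma adjusted p = 0.0181), and without floxed replicate 3 it was -1.01 (limma adjusted p = 0.0411). The direction of *Slc6a8* turned with the GC correction, to 0.74 (SE 0.44, limma adjusted p = 0.285), and once the block was added to that correction the gene was called higher (0.80, limma adjusted p = 0.0495). The adjusted p ran from 0.0109 to 0.297 over the alternatives.

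Among the creatine kinases, *Ckb* was lower in every H3atKO pool, *Ckmt1* was at or near 0 counts and *Ckmt2* spread more within a genotype than between them. *Ckb* (ENSMUSG00000001270; chromosome 12, 111669361 to 111672338), the brain-type cytosolic kinase, received 770, 188 and 83 counts in floxed pools 1 to 3 and 12, 9 and 6 counts in H3atKO pools 1 to 3. In cpm these were 16.9, 4.52 and 2.02 in floxed and 0.494, 0.459 and 0.379 in H3atKO pools. The H3atKO pools lay close together and below the floxed pools, of which replicate 1 was the highest by far. The means were 7.81 ± 7.97 and 0.444 ± 0.0588 cpm (SD, n = 3 each), and 1041 summed counts stood against 27, a ratio of 17.9 after the same scaling (95% exact interval 12.3 to 27.4, counting error only). The log2 fold change was -3.54 (SE 1.21, limma adjusted p = 0.0712). It passed the threshold with edgeR (-4.12, adjusted p = 0.0232), with the block (-4.02, limma adjusted p = 0.00509) and without floxed replicate 3 (-4.23, limma adjusted p = 0.0133). With the GC correction it was -1.02 (SE 0.47, limma adjusted p = 0.191). Together with the block the correction gave -1.23 (limma adjusted p = 0.109). It was negative under each alternative that tested *Ckb*, from -4.41 to -1.02, with an adjusted p of 1.29e-05 to 0.227.

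*Ckmt1* (ENSMUSG00000000308; chromosome 2, 121357714 to 121363737), the ubiquitous mitochondrial kinase, received 3 counts in floxed replicate 3 and 0 in the other 5 pools. These levels are at or under the floor of 3 counts, and no fold change or test is given. *Ckmt2* (ENSMUSG00000021622; chromosome 13, 91853387 to 91876885), the mitochondrial kinase of striated muscle, received 215, 151 and 330 counts in floxed pools 1 to 3 and 71, 864 and 1 in H3atKO pools 1 to 3. In cpm these were 4.72, 3.63 and 8.02 in floxed and 2.92, 44.1 and 0.0632 in H3atKO pools. H3atKO pools held both the highest and the lowest value, so the genotypes overlapped. The means were 5.46 ± 2.29 and 15.7 ± 24.6 cpm (SD, n = 3 each), and the log2 fold change was -0.99 (SE 1.66, limma adjusted p = 0.658). Its sign rested on single pools: it was -3.08 without H3atKO replicate 2 and 1.04 without H3atKO replicate 3, and it was 1.52 with edgeR and 1.14 with the block (SE 1.37, limma adjusted p = 0.507).

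RefSeq windows on GRCm38.p6, from 250 bases before to 50 after a transcription start, were found for *Gatm*, *Gamt*, *Ckb*, *Ckmt1*, *Ckmt2*, *Alpl* and *Ryr2*, 7 of the 10 genes. The windows of *Ckb* and *Gamt*, whose transcripts were low in all H3atKO pools, and of *Ckmt2*, whose transcript varied most, are shown 5′ to 3′ on the strand of the gene. *Ckb* lies at chr12:111672289-111672588, *Gamt* at chr10:80260963-80261262 and *Ckmt2* at chr13:91876836-91877135, each on the minus strand. Capitals mark 4 motifs on either strand: the TATA box (TATAAA), the CCAAT box (CCAAT), an E-box of the type bound by myogenic factors (CAGCTG) and the GC box (GGGCGG).
Ckb: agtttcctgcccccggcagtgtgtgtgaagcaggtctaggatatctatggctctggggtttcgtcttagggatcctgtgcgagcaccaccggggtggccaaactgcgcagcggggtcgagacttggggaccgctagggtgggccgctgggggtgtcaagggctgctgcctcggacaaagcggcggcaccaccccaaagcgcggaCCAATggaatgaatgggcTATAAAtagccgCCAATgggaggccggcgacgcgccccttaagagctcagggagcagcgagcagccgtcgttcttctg
Gamt: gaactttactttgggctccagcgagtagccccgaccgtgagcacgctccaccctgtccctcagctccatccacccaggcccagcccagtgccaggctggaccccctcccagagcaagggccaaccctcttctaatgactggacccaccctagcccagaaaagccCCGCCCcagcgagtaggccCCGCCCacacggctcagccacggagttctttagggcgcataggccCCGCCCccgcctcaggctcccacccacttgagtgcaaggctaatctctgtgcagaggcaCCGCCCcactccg
Ckmt2: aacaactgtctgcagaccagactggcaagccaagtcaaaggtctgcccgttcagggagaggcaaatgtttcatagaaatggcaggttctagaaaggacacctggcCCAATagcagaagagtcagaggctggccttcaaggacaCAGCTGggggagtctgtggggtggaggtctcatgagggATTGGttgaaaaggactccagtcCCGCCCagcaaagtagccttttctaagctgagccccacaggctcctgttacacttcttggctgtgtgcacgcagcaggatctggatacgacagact
The *Ckb* window holds 1 TATA box and 2 CCAAT boxes and is 63.0% GC. That of *Gamt* holds 4 GC boxes, all on the other strand, and is 66.0% GC. The *Ckmt2* window holds 1 myogenic E-box, 2 CCAAT boxes and 1 GC box and is 53.7% GC. Over all 32851 windows of this length the median GC content was 52.7%, and 13.6% held a TATA box, 37.4% a CCAAT box, 16.3% this E-box and 35.7% a GC box. A match of letters is a description of the window and not a binding site.

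*Alpl* (ENSMUSG00000028766; chromosome 4, 137741733 to 137796384), which encodes the phosphatase of the creatine cycle, measured 8.25, 4.76 and 2.53 cpm in floxed pools 1 to 3 and 4.28, 2.70 and 1.64 cpm in H3atKO pools 1 to 3. The genotypes overlapped, but each H3atKO pool was below the floxed pool of the same number. The means were 5.18 ± 2.89 and 2.88 ± 1.33 cpm (SD, n = 3 each), and the log2 fold change was -0.76 (SE 0.60, limma adjusted p = 0.348). The replicate block brought it past the threshold (-0.83, SE 0.27, limma adjusted p = 0.0469). The sign turned with the GC correction, to 0.86 (SE 0.27, limma adjusted p = 0.0921), and the adjusted p ran from 0.0469 to 0.699 over the alternatives.

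In the calcium cycle the pump and its regulator lay on opposite sides. *Atp2a2* (ENSMUSG00000029467; chromosome 5, 122453513 to 122502225), which encodes SERCA2, received between 3623 and 7534 counts per pool and measured 165, 175 and 179 cpm in floxed pools 1 to 3 and 279.6, 259 and 229 cpm in H3atKO pools 1 to 3. Every H3atKO pool was above every floxed pool, and the floxed pools differed little from each other. The means were 173 ± 6.88 and 256 ± 25.4 cpm (SD, n = 3 each; p = 0.1 in an exact two-sided permutation test, its smallest possible p). The log2 fold change was 0.56 (SE 0.21, limma adjusted p = 0.0856), and the call was made with the block (0.56, limma adjusted p = 0.0410), with DESeq2 (0.63, adjusted p = 0.0309) and with sample quality weights (0.58, limma adjusted p = 0.0130). With the GC correction it was 0.48 (SE 0.15, limma adjusted p = 0.0942). Scaled by library size only, without TMM, it was -0.29 (limma adjusted p = 0.428), so the direction depends on the scaling. The adjusted p ran from 0.0130 to 0.428 over the alternatives.

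*Ryr2* (ENSMUSG00000021313; chromosome 13, 11553102 to 12106945), the cardiac type of the release channel, received 56, 61 and 20 counts in floxed pools 1 to 3 and 11, 4 and 9 in H3atKO pools 1 to 3. In cpm these were 1.23, 1.47 and 0.486 in floxed and 0.453, 0.204 and 0.569 in H3atKO pools. The genotypes overlapped at floxed replicate 3. limma gave a log2 fold change of -1.29 (SE 0.77, limma adjusted p = 0.224), and it was -1.35 with the block (limma adjusted p = 0.143) and -1.15 with the GC correction (limma adjusted p = 0.276). Of the alternatives, sample quality weights alone gave a call (-1.96, limma adjusted p = 0.0252), in a range of the adjusted p up to 0.446.

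*Sln* (ENSMUSG00000042045; chromosome 9, 53850164 to 53854560), sarcolipin, received 45, 111 and 31 counts in floxed pools 1 to 3 and 0, 2 and 0 counts in H3atKO pools 1 to 3. In cpm these were 0.988, 2.67 and 0.753 in floxed and 0, 0.102 and 0 in H3atKO pools. No H3atKO pool exceeded the floor of 3 counts, while each floxed pool was above it, so the genotypes did not overlap at this low level. Over the genotypes 187 floxed counts stood against 2. After scaling by the summed TMM library sizes the ratio was 43.5, poorly bounded from above (95% exact interval 11.9 to 362, counting error only). The fitted log2 fold change of -4.86 (SE 1.25, limma adjusted p = 0.0423) depends on the offset given to 0 counts. The call held with edgeR (adjusted p = 0.0249), with the block (limma adjusted p = 0.00592), with the GC correction (-5.13, limma adjusted p = 0.0450) and with both (-5.07, limma adjusted p = 0.0148). With each pool left out in turn it held only without floxed replicate 3 (limma adjusted p = 0.0127) and was lost in the other 5 fits, with an adjusted p of up to 0.162, while the log2 fold change stayed between -5.68 and -4.33.

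Skeletal muscle transcripts differed more between pools than between genotypes. The summed level of 16 genes of fast muscle fibres, such as *Acta1*, *Myh4* and *Ttn*, was 1422, 939.8 and 4492 cpm in floxed pools 1 to 3 and 768, 7089 and 45.8 cpm in H3atKO pools 1 to 3. The highest and the lowest pool were both H3atKO, and the two-sided exact permutation test gave p = 1 (0.1 is the smallest possible). On the log2 scale the ratio of the mean sums of H3atKO to floxed was 0.21, whereas the fitted log2 fold changes of all 16 genes were negative, with a median of -2.29. limma called 0 of the 16, and edgeR and DESeq2 called 0 as well. With limma before adjustment 3 were lower, against 23.4% of all genes. *Acta1* did not overlap between genotypes (348, 101 and 105 cpm against 9.88, 76.2 and 0.190 cpm; log2 fold change -4.68, limma adjusted p = 0.0700), while *Myh4* and *Ttn* had log2 fold changes of -1.64 and -0.46 (adjusted p = 0.630 and limma adjusted p = 0.833). As a share of the counts the fast genes made up 0.184%, 0.129% and 0.611% in floxed pools and 0.0707%, 0.478% and 0.00303% in H3atKO pools, so H3atKO replicate 3 was almost free of them, with 724 counts in all. The summed level of 7 genes of slow fibres was between 0.126 and 20.3 cpm (exact permutation p = 0.5), and none of them was called by limma, edgeR or DESeq2 or had an unadjusted p under 0.05.

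Of the members, *Ckmt2* followed the muscle signal most closely. Per 1000 counts on the fast muscle genes, *Ckmt2* received 3.32, 3.86 and 1.79 counts in floxed pools 1 to 3 and 3.81 and 6.21 in H3atKO pools 1 and 2, and in H3atKO replicate 3 it had 1 count. The muscle counterparts of the other genes also had few counts in that pool: *Ckm* had 1 count, *Casq1* 1, *Ryr1* 2 and *Atp2a1* 5. Per 1000 fast muscle counts *Ryr1* received 13.3, 13.2 and 13.4 in the floxed pools and 10.4 and 10.01 in H3atKO pools 1 and 2. *Ckm* received 55.5, 29.96 and 12.4 in the floxed pools and 6.11 and 4.24 in H3atKO pools 1 and 2, and *Atp2a1* received 114, 94.2 and 87.4 against 52.2 and 47.7. For *Ryr1*, *Ckm* and *Atp2a1* alike the ratio was lower in the H3atKO pools than in each floxed pool, and this difference of ratios was not tested.

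In the pool with almost no muscle counts, H3atKO replicate 3, other members were still detected, except *Gamt*, *Sln* and *Ckmt1*, which were under the floor of 3 counts. There *Atp2a2* had 3623 counts, *Gatm* 275, *Slc6a8* 255, *Alpl* 26, *Ryr2* 9, *Ckb* 6, *Gamt* 2 and *Sln* 0. *Atp2a2* was at 229 cpm in that pool and at 259 cpm in H3atKO replicate 2, although their fast muscle sums were 45.8 and 7089 cpm. For *Slc6a8* the same pools had 16.1 and 30.3 cpm. *Sln*, which mouse muscle can express, did not follow the fast muscle genes: the 2 counts of H3atKO replicate 2 came with 139042 fast muscle counts and the 111 counts of floxed replicate 2 with 39081. After each genotype's mean was subtracted, the correlation of log2 cpm with the mean log2 cpm of the fast muscle genes over the 6 pools was 0.99 for *Ckmt2*, 0.76 for *Slc6a8*, 0.63 for *Atp2a2*, 0.27 for *Gatm*, 0.15 for *Alpl*, 0.0015 for *Gamt*, -0.042 for *Sln*, -0.11 for *Ckb* and -0.70 for *Ryr2*. These values describe 6 pools that share the scaling of their libraries.

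**Figure D2:**
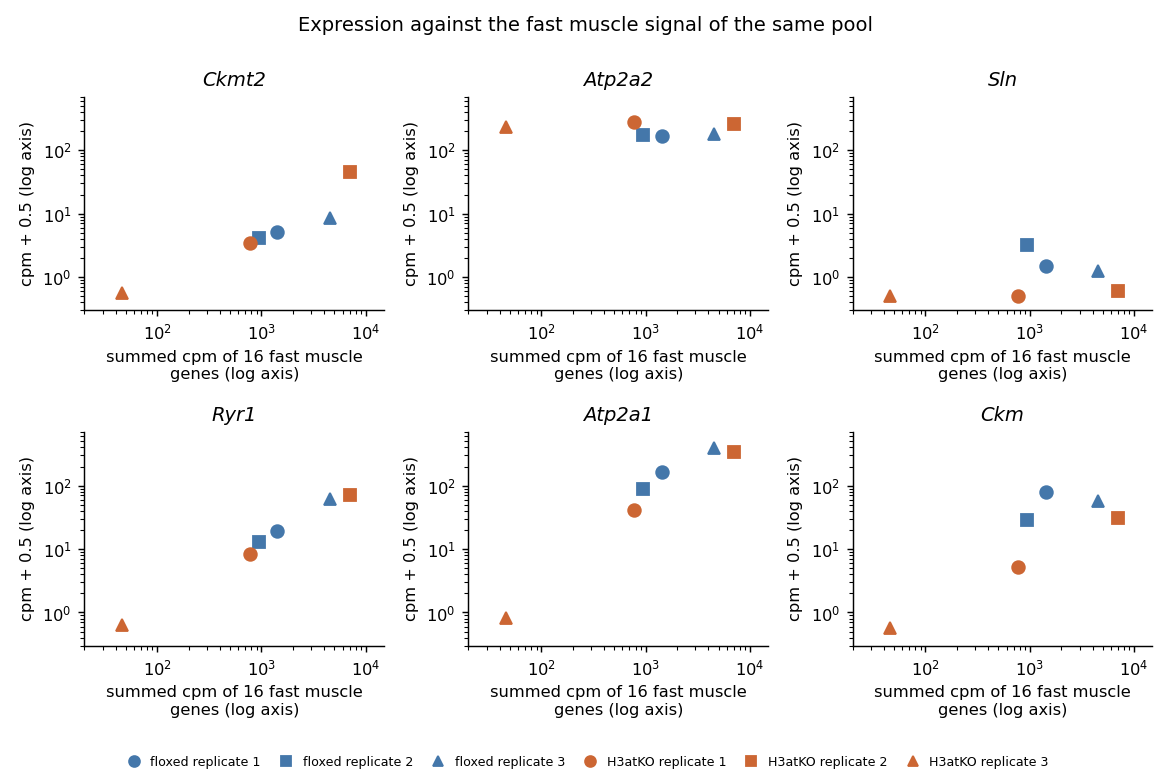
Expression of *Ckmt2*, *Atp2a2* and *Sln*, and of the muscle genes *Ryr1*, *Atp2a1* and *Ckm* (cpm + 0.5, log axes of the same range), against the summed cpm of 16 fast muscle genes (log axis) in the 6 pools, each point a pool. *Ckmt2*, *Ryr1* and *Atp2a1* rise along the muscle axis, from at most 0.316 cpm in the pool at 45.8 cpm of muscle genes, whereas *Atp2a2* stays between 165 and 279.6 cpm.

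With the muscle signal as a covariate limma called 0 of the 9 genes, and before adjustment 3 were lower and 1 was higher. Of all genes this fit called 0.314% lower and 1% higher, or 17.4% and 15.7% before adjustment. It has 1 residual degree of freedom less, and it called 197 genes in all against 2468 without the covariate. The log2 fold change was then -5.00 for *Sln* (adjusted p = 0.0972), -3.93 for *Ckb* (adjusted p = 0.116), -3.53 for *Gamt* (adjusted p = 0.125), -0.75 for *Slc6a8* (adjusted p = 0.164) and 0.61 for *Atp2a2* (limma adjusted p = 0.155). The sizes of these genes moved little, and *Alpl* went from -0.76 to -0.72 and *Gatm* from 0.11 to 0.28. *Ryr2* went from -1.29 to -1.89 (limma adjusted p = 0.164). *Ckmt2* went from -0.99 to 1.38, and its standard error from 1.66 to 0.45 (limma adjusted p = 0.111). The part of muscle in these values was not tested. Without the most muscle-rich pool of each genotype, floxed replicate 3 and H3atKO replicate 2, limma called *Sln* (-5.99, adjusted p = 0.0106), *Gamt* (-4.51, adjusted p = 0.00949), *Ckb* (-4.25, adjusted p = 0.0162) and *Slc6a8* (-1.29, adjusted p = 0.0211) lower and 0 higher, against 24.4% and 20.5% of all genes. This choice of pools followed a look at the data. Floxed replicate 3 was the lowest floxed pool for *Sln*, *Gamt*, *Ckb* and *Slc6a8*. H3atKO replicate 2 was the highest H3atKO pool for *Sln*, *Gamt* and *Slc6a8*. Leaving these pools out thus widens the gap between the genotypes for these genes. *Sln*, *Gamt* and *Ckb* also passed the filter of the main fit through floxed pools only. The part of muscle in these calls was not tested.

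**Figure D3:**
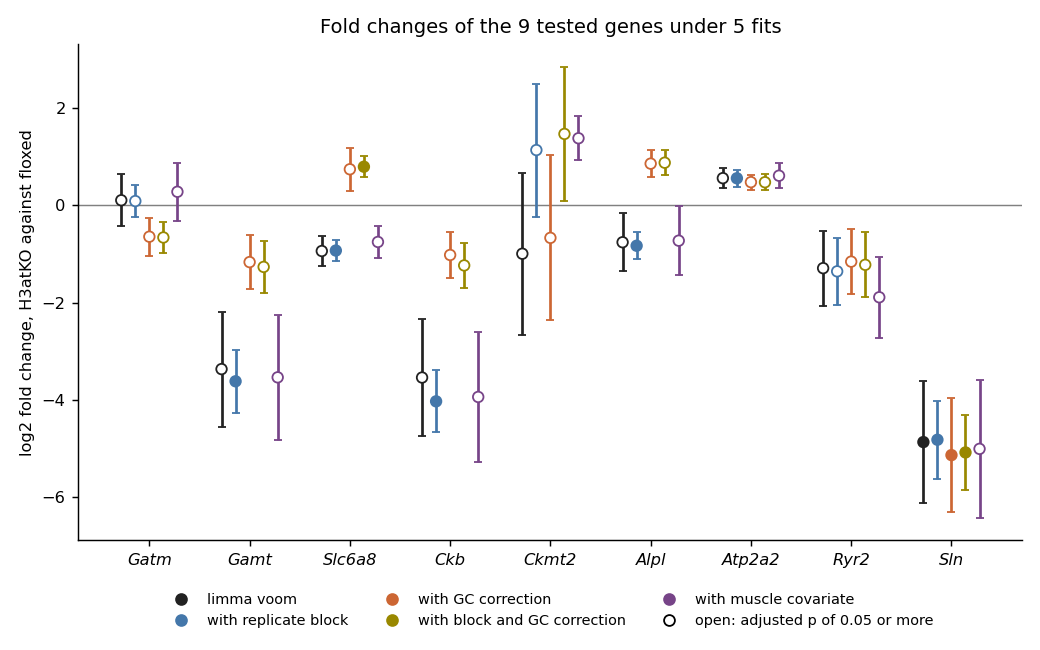
Log2 fold change of H3atKO against floxed for each tested gene under limma voom and with the replicate block, the GC correction, both, or the muscle covariate (bars are the standard error; filled points have an adjusted p under 0.05). *Sln* is at -4.81 or lower in all 5 fits, *Gamt* and *Ckb* shrink to near -1 with the GC correction, and *Slc6a8* and *Alpl* change sign with it.

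The GC correction subtracts from each pool a curve that depends on GC content alone, so how far a gene moves follows largely from its GC content. By the GC content of the longest transcript, the members richest in GC moved most. *Ckb* (61.7% GC, percentile 98.7 of the tested genes) and *Gamt* (59.7%, percentile 96.0) moved by more than 2 on the log2 scale. *Slc6a8* (56.8%, percentile 87.8) and *Alpl* (56.5%, percentile 86.3) crossed 0. *Sln* (47.0%, percentile 37.8), *Atp2a2* (48.2%, percentile 44.7) and *Ryr2* (49.6%, percentile 51.8) lie near the middle and moved by less than 0.3, and *Ckmt2* (50.5%, percentile 57.2) went from -0.99 to -0.67. *Gatm* is the poorest in GC (43.2%, percentile 18.3) and went from 0.11 to -0.64. A genotype effect running along GC content would be subtracted too, and cannot be told apart.

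**Figure D4:**
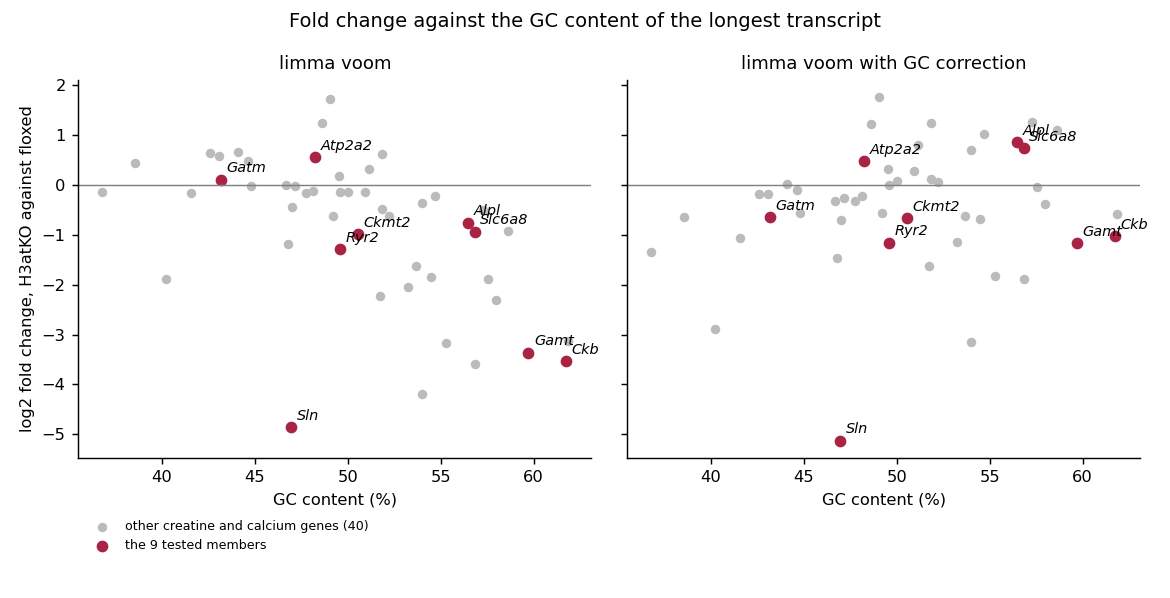
Log2 fold change of H3atKO against floxed against the GC content (%) of the longest transcript, for the 9 tested genes (red) and 40 other creatine and calcium genes (grey), before (left) and after (right) the GC correction. *Gamt* and *Ckb*, the richest in GC of the 9, are at -3.36 and -3.54 before and -1.16 and -1.02 after it, while *Sln* is at -4.86 and -5.13.

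Markers of other cell types moved with some of these values, and their part in the results was not tested. Beside the counts below, limma called 7.07% of all genes lower and 9.42% higher. With the block it called 28.7% lower and 24.8% higher. The summed level of 6 smooth muscle genes was 1210, 731 and 143 cpm in floxed pools 1 to 3 and 45.3, 59.9 and 21.7 cpm in H3atKO pools 1 to 3, and limma called 2 of the 6 lower. With the block limma called all 6 lower. Among the floxed pools this sum has the same order as *Ckb*, *Gamt* and *Alpl*. That order is not particular to smooth muscle. The endothelial, adipocyte, lymphocyte and slow fibre sums and the correlation with GC content also fell from floxed pool 1 to floxed pool 3. For 6 endothelial genes the sum was 627 to 968 cpm in floxed and 431 to 574 cpm in H3atKO pools (2 of 6 lower, 4 with the block), and for 6 genes of Schwann cells and nerve it was 202 to 320 and 110.1 to 152 cpm (2 of 6 lower, 5 with the block). Adipocyte markers were abundant in every pool, with sums of 10 genes of 15906 to 45803 cpm in floxed and 16197 to 27770 cpm in H3atKO pools (2 of 10 lower, 6 with the block). The sum of 8 genes of thermogenic adipocytes was 39.1 to 80.0 and 348 to 1175 cpm (4 of 8 higher, 7 with the block). Within it the counts of *Ucp1* were 574, 24 and 137 in floxed pools and 3839, 26 and 182 in H3atKO pools (log2 fold change 2.33, limma adjusted p = 0.353, and 2.90, adjusted p = 0.00536 with the block). Macrophage markers summed to 413 to 2220 and 354 to 636 cpm (1 of 6 lower, 2 with the block). Lymphocyte markers summed to 5.81 to 139 and 14.02 to 562 cpm (0 of 10 called by limma or edgeR, 3 higher with DESeq2, 5 with the block, 2 before adjustment). Of all genes DESeq2 called 19.6% higher, and 20.4% were higher with limma before adjustment. Epithelial markers summed to 0.255 to 10.1 cpm over all pools (0 of 3 tested genes called by limma, edgeR or DESeq2, and 0 at an unadjusted p under 0.05).

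Levels can be compared between genes per length of exon. In floxed pools *Atp2a2* was the highest, at 28.4 ± 1.13 cpm per kb, followed by *Slc6a8* (7.53 ± 0.704), *Gatm* (5.30 ± 3.51), *Ckmt2* (3.67 ± 1.54), *Ckb* (2.70 ± 2.75), *Gamt* (2.28 ± 1.62), *Alpl* (1.28 ± 0.716), *Sln* (1.12 ± 0.793), *Ryr2* (0.0368 ± 0.0178) and *Ckmt1* (0.00974 ± 0.0169; SD, n = 3 each). Only *Atp2a2* and *Slc6a8*, and *Sln* and *Ryr2*, were neighbours in this order whose pools did not overlap. In H3atKO pools the order was *Atp2a2* (42.1 ± 4.18), *Ckmt2* (10.6 ± 16.6), *Gatm* (5.24 ± 1.70), *Slc6a8* (4.08 ± 1.51), *Alpl* (0.713 ± 0.329), *Gamt* (0.171 ± 0.1005), *Ckb* (0.153 ± 0.0203), *Sln* (0.0258 ± 0.0447), *Ryr2* (0.0142 ± 0.00648) and *Ckmt1* (0). The pools of neighbours overlapped between *Ckmt2* and *Gatm*, *Gatm* and *Slc6a8*, *Gamt* and *Ckb*, and *Sln* and *Ryr2*. Exons of *Ckmt1*, *Ckmt2* and *Atp2a2* overlap a gene on the opposite strand (*Strc*, *1700119I11Rik* and *Gm43361*), the kit marks strand, and the strand setting of the counting is not given in the sources used here.

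The rest of the creatine and calcium machinery was described by 7 and 33 further genes, all of which were tested. Of the 7 creatine genes limma called *Slc25a5* higher and 0 lower, with a median log2 fold change of 0.59, and of the 33 calcium genes it called *Slc8b1* lower and 0 higher, with a median of -0.36. The median over all tested genes was -0.092, and limma called 9.42% of them higher and 7.07% lower. Of the 40, edgeR called 1 higher and 3 lower, against 12.8% and 18.4% of all genes. DESeq2 called 2 higher and 5 lower, against 19.6% and 23.2%. With limma before adjustment 1 was higher and 7 were lower, against 20.4% and 23.4%. *Slc25a5*, the mitochondrial ADP/ATP carrier ANT2, measured 157, 107 and 108 cpm in floxed and 211, 329 and 341 cpm in H3atKO pools. The genotypes did not overlap, and the log2 fold change was 1.24 (SE 0.29, limma adjusted p = 0.0354) and 1.22 with the GC correction (limma adjusted p = 0.0432). With library sizes alone it was 0.38 (limma adjusted p = 0.255).

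*Slc8b1*, the mitochondrial sodium/calcium exchanger, measured 60.7, 40.04 and 17.8 cpm in floxed and 4.74, 4.18 and 1.07 cpm in H3atKO pools. All H3atKO pools were lower than the floxed ones. limma gave a log2 fold change of -3.59 (SE 0.76, limma adjusted p = 0.0301) and -1.89 with the GC correction (limma adjusted p = 0.0265). With the replicate block limma called 3 of the 40 higher (*Slc25a5*, *Atp2b1* and *Ryr3*) and 6 lower, *Slc8b1* among them, against 24.8% and 28.7% of all genes, and *Atp2b1* and *Ryr3* are named after their values were seen. With the muscle covariate neither was called, at log2 fold changes of 1.21 for *Slc25a5* (limma adjusted p = 0.0994) and -3.45 for *Slc8b1* (limma adjusted p = 0.0834). The muscle and heart counterparts were not called by limma: *Ckm* was at a log2 fold change of -4.20 (SE 1.49, adjusted p = 0.0768), *Atp2a1* of -3.17 (adjusted p = 0.227), *Ryr1* of -2.31 (adjusted p = 0.310), *Casq1* of -2.23 (adjusted p = 0.396) and *Pln*, phospholamban, of 0.45 (adjusted p = 0.614).

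The genes most like each member were sought among about 8350 genes with a mean of at least 10 cpm, by Pearson's r of the log2 cpm after each genotype's mean was subtracted, over 6 pools. With so few pools the fiftieth gene of each list still had an r of 0.84 to 0.99, so the ranks separate little. For *Ckmt2* they were *Eno3* (r = 0.998), *4833439L19Rik* (0.996) and *Mylk2* (0.994), and 5 of the 16 fast muscle genes were among the 50 most alike. For *Slc6a8* they were *Ank*, *Myh1* and *Proca1* (0.990 to 0.995), with 1 fast muscle gene among the 50, and for each other member 0 were among them. For *Gatm* they were *Rab1a*, *Ccl11* and *Rnf7*, for *Gamt* *Tmem186*, *G0s2* and *Ushbp1*, for *Ckb* *Gne*, *Rpia* and *Taf10*, and for *Alpl* *Tnip1*, *Rps14* and *Arel1*. For *Atp2a2* they were *Ptpn9*, *Rpl23a* and *Zdhhc16*, for *Ryr2* *Dennd4a*, *Ube2j1* and *Mycbp2*, and for *Sln* *Lars2*, *Spry2* and *Acer2*.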

How the data were processed

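Poly(A)-selected stranded libraries were made from pooled IngWAT RNA. Per the labels and the methods, the authors trimmed reads with cutadapt 1.3, aligned them to GRCm38 with STAR 2.4.2a and counted them per Ensembl gene with HTSeq 0.6.1. The deposited values are raw counts per gene, 1 file per pool, followed by tallies of reads given to no gene, which were kept out of library sizes and tests. Symbols, positions and GC content came from GENCODE M21 (46005 of 46517 identifiers matched).

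The filter of the study was used (1 cpm or more in 1 or more samples), libraries were scaled with TMM (edgeR 4.0.16) and genotypes were compared with limma 3.58.1 (voom, moderated test, Benjamini-Hochberg adjusted p under 0.05 over 14967 genes) in R 4.3.3. Fits were tested on simulated counts with known fold changes. The simulation held no relation to GC content, no pairing of replicates and no muscle signal, so it does not show how the fits handle these. Library totals of 23865507 to 35200685 counts put 3 counts at 0.0659 to 0.190 cpm of the TMM-scaled libraries. Ratios of summed counts were divided by the ratio of the summed TMM-scaled library sizes. Exact intervals were taken on counts summed over pools, so they cover counting error only and leave out the spread between pools. PCR copies were not marked, so the intervals can be too narrow for counting error as well.

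Alternatives were edgeR's quasi-likelihood test, DESeq2 1.42.0, other scalings, filters and thresholds, quality weights, each pool left out, the replicate number as a block, a GC correction (loess curve of each sample's deviations on GC content, span 0.3), both, no mitochondrial genome genes, and the mean log2(cpm + 0.5) of the fast muscle genes as a covariate. The covariate with the GC correction and the fit without the 2 most muscle-rich pools were added after seeing these values. After subtraction of genotype means, the correlation over genes was 0.488, 0.370 and 0.345 between same-numbered pools and -0.204 on average between the others. Such deviations cancel out within a genotype, so the average between the others follows largely from the same-numbered values and is no separate evidence. The correlation with GC content fell with the replicate number in both genotypes, and its part in these values was not tested. Every pair was above 0.1, and the numbers were taken to pair the samples from this check alone, since no source says what they stand for.

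The members, the gene lists (16 fast and 7 slow muscle fibre genes, 40 other creatine and calcium genes, and markers of smooth muscle, adipocytes, thermogenic adipocytes, lymphocytes, macrophages, epithelium, nerve and endothelium) and the tests were chosen with earlier results of these data known. Named genes are the members, the deleted gene, further creatine and calcium genes called by limma voom, *Ckm*, *Atp2a1*, *Ryr1*, *Casq1*, *Pln*, *Acta1*, *Myh4*, *Ttn*, *Ucp1*, and the 3 genes most like each member.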

Additional observations from a re-analysis of the deposited data

Results flagged for a closer look

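The tallies of reads given to no gene, which enter none of the comparisons, differed between genotypes. Alignments that were not unique were 44.7% ± 0.849 (SD, n = 3) of everything counted or tallied in H3atKO pools and 31.0% ± 3.68 in floxed pools, and each H3atKO pool (43.8% to 45.5%) was above each floxed pool (28.3% to 35.2%). Its part in the results was not tested.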

How the results depend on the processing

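The number of genes called differs by over 1.5 times between fits, as do the counts among the members and their pathway. Against 2468 calls over all genes, 1 among the members and 2 among the 40 other creatine and calcium genes with limma voom, edgeR gave 4665, 3 and 4, DESeq2 6400, 4 and 7, library sizes alone 5973, 4 and 11, sample quality weights 8443, 6 and 8, and the replicate block 8007, 6 and 9. The GC correction gave 1288 calls over all genes, the block with the GC correction 2 members and 10 others, the muscle covariate 197, 0 and 0, that covariate with the GC correction 460, 0 and 0, and the fit without floxed replicate 3 and H3atKO replicate 2 6601, 4 and 11. Without the filter 3 members were called, under the filter of at least 10 counts per pool 4 of the other genes, and at adjusted p thresholds of 0.01 and 0.1 the calls were 82 and 5986 over all genes and 0 and 5 among the members. With each pool left out in turn the ranges were 1 to 6557, 0 to 4 and 0 to 8, highest without floxed replicate 3 and, over all genes, lowest without floxed replicate 2. Calls up and down over all genes were 1410 and 1058 with TMM and 306 and 5667 with library sizes alone.

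*Gatm*, at 0.11, turned to -0.018 with edgeR, -0.71 with library sizes alone, -0.0096 without the filter, -0.011 with at least 10 counts per pool, -0.64, -0.66 and -0.42 with the GC correction alone, with the block and with the muscle covariate, and -0.28, -0.016 and -0.14 without floxed replicates 1 and 2 and H3atKO replicate 2, in a range of up to 0.61 over the pools left out. *Ckmt2* turned to 1.52 with edgeR, 1.61 with DESeq2, 0.43 with quality weights, 1.14 with the block, 1.47 with the block and the GC correction, 1.38 with the muscle covariate, 1.64 with it and the GC correction, and 1.04 without H3atKO replicate 3, against -3.08 without H3atKO replicate 2. With the GC correction alone, with the block and with the muscle covariate *Slc6a8* turned to 0.74, 0.80 and 0.89 and *Alpl* to 0.86, 0.88 and 0.85, and *Atp2a2* turned to -0.29 with library sizes alone. The causes were not tested. The log2 ratio of the fast muscle sums, 0.21, turned to -0.74 with library sizes alone and to -1.15 for the slow fibre genes, and it ran from -2.52 (without H3atKO replicate 2) to 1.16 over the pools left out, turning at -0.046 and -0.17 without floxed replicates 1 and 2. Under the filter of at least 10 counts per pool *Slc6a8* was the only member called (-1.05, limma adjusted p = 0.0438). That fit called 3439 of 12466 genes, and *Gamt*, *Ckb*, *Ryr2* and *Sln* were not tested in it. Under every other alternative *Gamt*, *Ckb*, *Ryr2* and *Sln* stayed negative. Each of them passed the filter of the main fit through floxed pools only, so this constant sign is no support apart from that filter. The replicate block changed no call among the members and the named genes other than those given beside them. Depth limits *Sln*, *Ckmt1*, *Ryr2* and, in H3atKO pools, *Gamt* and *Ckb*, with at most 12 counts per pool there.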
